A study of Homo sapiens with 4 samples.

Results

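The genes described here were read by a probe that lay at background in naive NB4 cells and above it in NB4 cells made resistant to arsenic trioxide (ATO). They are called switched on for that probe only, since for 37 of the 140 another probe of the gene was above background on both naive arrays. NB4 is an established human acute promyelocytic leukemia (APL) cell line, whose cells are arrested at the promyelocyte stage and carry the PML-RARA fusion. ATO binds the PML part of that fusion and leads to its degradation, and a line that grows in the drug is used as a laboratory model of resistance to it. Gene expression was profiled on 4 one-colour Agilent whole human genome arrays. Naive NB4 and the resistant line, called NB4-VM-AsR1 in the labels and NB4-EV-AsR1 in the methods and taken here as the same line, each had 2 arrays, and both grew in the same serum-supplemented medium. The resistant line was a clone derived from NB4, thus 1 model of resistance, and had been without ATO for 1 week. Within a line the 2 arrays came from 2 independent culture flasks.

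A gene belonged to the set if 1 of its probes read well above background in each of the resistant flasks and in none of the naive flasks, and if the probe's mean deposited log2 value was at least 2 higher in the resistant line. Names that are only accessions or clone identifiers were left out. This gave 140 genes, read by 153 probes, among 18368 named genes on the array (0.762%), and the mirror rule gave 227 genes lost from the resistant line. Because the flags and values of all 4 arrays chose these genes, their differences are a description and carry no test. Without naive flask 1 the rule gave 170 genes, without naive flask 2 it gave 223, and without resistant flask 1 or 2 it gave 256 or 268. All 4 arrays lay on 1 slide, the naive samples in the first positions, so that position on the slide and cell line cannot be told apart.

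Genes that a cell type does not use are usually held silent by closed chromatin, by DNA methylation at CpG-rich promoters or by the lack of the factors that activate them. A gene that is off in a promyelocyte may be a normal product of liver, muscle, neurons or germ cells, and others belong to later stages of myeloid cells. The labelled cell type was checked against its markers. Of 8 promyelocyte markers on the array, 8, 7, 8 and 8 were well above background in naive flasks 1 and 2 and resistant flasks 1 and 2. The brightest was MPO, the granule peroxidase of myeloid cells, with levels of 5.96 and 6.19 in the naive and 5.97 and 6.28 in the resistant flasks. Others differed between the lines in both directions. ANPEP, a surface peptidase, read 3.54 and 3.49 in naive and 1.68 and 1.70 in resistant cells, while ELANE, neutrophil elastase, read -5.74 and -6.57 against -3.67 and -3.66 and AZU1, a granule protein, -0.77 and -0.78 against 0.387 and 0.392. A level here is the deposited log2 value relative to the 75th percentile of its array.

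Markers of other cell types were also read, and none of them was among the 140 genes. The fibroblast markers COL1A1, COL1A2, COL3A1, LUM and PDGFRA, the endothelial markers CDH5, KDR and TEK, and the epithelial markers CDH1 and KRT5 were well above background on no array. Of 5 monocyte and macrophage markers, 3 were above background on every array, with summed linear levels of 2.93 and 3.37 in the naive and 6.70 and 7.73 in the resistant flasks. CSF1R, the receptor of the macrophage growth factor, was the brightest of them and made up most of the sum, at 1.47 and 1.68 against 2.69 and 2.90. MARCO read -4.64 and -4.47 against -2.78 and -2.60, while CD14 read -3.24 and -3.18 against -3.67 and -3.77. CD163 and FCGR3A stayed below background on all arrays. The T cell markers summed to 1.77 and 2.39 against 0.141 and 0.174, with CD3D, which made up most of the naive sum, and CD3G above background only in the naive flasks. CD3E, LCK and CD2 were above background on all arrays, CD2 at -5.11 and -4.90 against -4.30 and -3.67. The mast cell and basophil markers, led by HDC, summed to 14.8 and 19.1 against 1.57 and 1.87, the epithelial markers, led by KRT18, to 7.58 and 10.4 against 3.94 and 4.41, and the neural markers, led by TUBB3, to 15.8 and 14.8 against 8.45 and 9.93. Each fall lay mostly in the leading gene, KRT18 at 2.20 and 2.69 against -1.89 and -1.54 and TUBB3 at 3.63 and 3.08 against 2.06 and 1.96. EPCAM read 1.14 and 1.18 against 1.31 and 1.5004, KRT8 -0.43 and 0.68 against 0.22 and 0.25, and GFAP 1.70 and 2.64 against 2.06 and 2.57. Sums of fibroblast, endothelial, erythroid, megakaryocyte and B cell markers stayed below 2 on all arrays. The part of these markers in the results below was not tested.

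The naive values of these genes were not measurements of a low level but readings at or near background, so each fold is given as a lower bound. The bound sets the mean of the resistant arrays against the naive mean of, on each array, the higher of the probe's own level and the lowest level of any probe well above background there. Those floors were -6.35 and -6.17 on the naive arrays. On both naive arrays 35 genes carried a surrogate value that the scanner software writes in place of a signal too close to background, 49 carried it on 1 array and 56 on none. The bound was at least 2-fold for 101 genes, at least 4-fold for 53 and at least 16-fold for 11, with a median of 3.12-fold. For the other 39 genes it lay below 2-fold, down to 1.04-fold. The measured log2 difference ran from 2.01 to 9.27 with a median of 3.09. After normexp background correction, with or without bright local backgrounds reset, that median was 0.66 and the rule gave 11 or 5 genes.

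The flasks of a line agreed closely for most genes. The levels of the 2 resistant flasks differed by a median of 0.29, with 8 genes over 1 and a largest gap of 2.92. That gap was in ANK2, an adaptor of membrane proteins, at -3.25 and -6.17, and C14orf1, ITSN1 and LRRC43 also had gaps over 2. In the naive flasks, near background, the median was 0.39 and 36 genes exceeded 1. The flags and the required difference left little room for overlap between the lines, and the smallest gap between them was 0.20, in ANK2. A limma fit covered all 28228 probes tested, with Benjamini-Hochberg adjustment and a log2 difference of at least 1. At the probe that met the rule it called 118 of the 140 genes (84.3%) higher. The background in that fit was 2.3% of probes called higher, and by the brightest tested probe of each named gene 2.95% were called higher and 3.34% lower. Since the rule used this contrast, nothing is read from the 84.3%. The 22 genes not called at the probe that met the rule were ITSN1, C14orf1, CD86, MTMR9L, SLC24A4, ITPRIPL2, PPFIBP1, CYB561, MYO15A, JAKMIP3, ANK2, MYL4, MSTN, FLJ13197, CECR1, ADAMTS4, GNA14, CASKIN2, RPL10, ACCN3, GFPT2 and SPDYE8P.

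**Figure D1:**
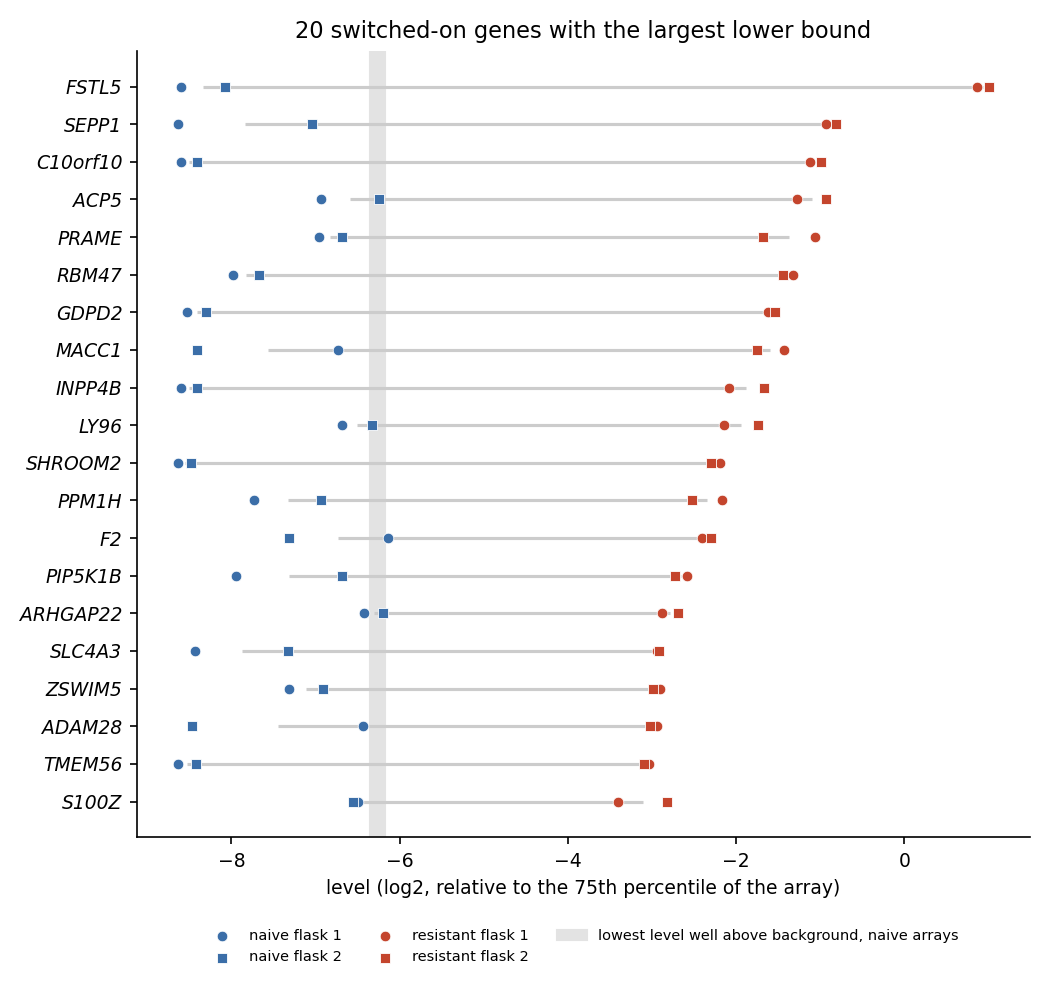
Log2 levels (75th percentile of the array = 0) of the 20 switched-on genes with the largest lower bound, in naive (blue) and resistant (red) flasks 1 (circles) and 2 (squares), with a grey line between the means of the lines. The grey band marks the lowest level well above background on the naive arrays, -6.35 to -6.17; the resistant flasks of each gene lay together to the right of it, FSTL5 farthest at 0.86 and 1.01.

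Secreted and plasma proteins made up 13 of the genes, 7 of them with a bound of at least 4-fold. They were FSTL5, SEPP1, RARRES2, F2, SERPING1, IL18, PROS1, THPO, CLC, MSTN, CECR1, C2 and ADAMTS4. FSTL5, a secreted relative of follistatin read by a probe at chr4:162305119-162305178 (hg19, minus strand), had levels of -8.60 and -8.08 in the naive flasks and 0.86 and 1.01 in the resistant flasks. That is at least 147-fold, the largest bound of the set. SEPP1, now SELENOP, the selenium carrier of plasma made mainly by the liver, read -8.64 and -7.04 in naive and -0.93 and -0.81 in resistant cells, at least 41.9-fold higher. F2 encodes prothrombin, another liver product, and its mean over 10 spots read -6.14 and -7.32 against -2.40 and -2.29, at least 14.03-fold higher, while another F2 probe stayed below background on all arrays.

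Smaller bounds were found for other blood plasma proteins. SERPING1, the inhibitor of the first complement component, was at least 4.22-fold higher, the complement component C2 at least 4.32-fold and PROS1, the anticoagulant protein S, at least 3.09-fold. Among ligands, RARRES2, the precursor of the chemoattractant chemerin, was at least 5.62-fold higher and IL18, a cytokine of macrophages, at least 7.10-fold. Near the floor were THPO, the platelet growth factor thrombopoietin, at 1.48-fold, MSTN, the muscle growth inhibitor myostatin, at 1.37-fold, and CLC, the protein of eosinophil crystals, at 1.0997-fold. Another THPO probe, above background on all arrays, read -4.38 and -4.60 in naive and -4.96 and -5.13 in resistant cells, a difference of -0.55 that was not called. Of the follistatin and SPARC family, 8 of 12 genes on the array were tested. FSTL3 was the other member called higher, by 1.43 ± 0.23 (SE, limma adjusted p = 0.0317), and none was called lower.

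Receptors and immune proteins of the cell surface numbered 13, but only 2 had a bound of at least 4-fold. They were LY96, MRGPRX1, CD74, CD86, PLXDC1, P2RY14, VIPR1, IL8RB, ERBB4, IL5RA, ADRB1, GPER and ACVRL1. LY96, which binds endotoxin beside its toll-like receptor on monocytes, read -6.69 and -6.33 in naive and -2.15 and -1.74 in resistant flasks, at least 19.96-fold higher. ERBB4, a receptor tyrosine kinase of the epidermal growth factor family, was at least 4.33-fold higher at its probe in the set, and another ERBB4 probe was below background on all arrays. CD86, a costimulatory protein of antigen-presenting cells, and CD74, the invariant chain of MHC class II, read at least 3.94-fold and 3.79-fold higher, but CD86 was not called. Another CD86 probe was above background on all arrays, at -2.76 and -0.08 in naive and -0.98 and -0.06 in resistant cells, and was not called either.

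Several G protein-coupled receptors were in this group. ADRB1, the cardiac adrenergic receptor, read -8.12 and -6.95 against -4.86 and -5.15. P2RY14, a receptor for UDP-sugars, read -8.67 and -8.49, both surrogate values, against -5.80 and -5.02. VIPR1, a receptor for vasoactive intestinal peptide, read -8.47 and -8.42 against -4.95 and -5.70. The bounds of these receptors were only 2.39-fold, 1.81-fold and 1.92-fold, and the gap between the lines was required by the rule. Of the 8 other secretin family receptors and ligands tested none was called, and their median log2 difference was -0.26. Among 131 other G protein-coupled receptors picked by symbol, 7 were called higher and 10 lower, led by TBXA2R, the thromboxane receptor, at 6.99 ± 0.25 (SE, limma adjusted p = 0.000756). ACVRL1, a BMP receptor, read -7.97 and -8.33 against -6.01 and -5.93. In its pathway TGFB2, a ligand, was called higher by 4.59 ± 0.74 and CHRD, a secreted BMP antagonist, by 3.06 ± 0.24 (limma adjusted p = 0.0321 and 0.00332), TGFB2 from background on 1 naive array. Of the 41 other genes tested there, 3 were called higher and 1 lower.

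Transporters, channels and pumps accounted for 9 genes: SLC4A3, ATP6V0D2, ATP8A2, SLC26A11, SLC7A8, SLC24A4, GRID1, ACCN3 and MFSD6L. SLC4A3, which exchanges chloride for bicarbonate, read -8.43 and -7.32 in naive and -2.94 and -2.91 in resistant cells, at least 10.1-fold higher and the only one of the group past 4-fold. The anion transporter SLC26A11 read -8.60 and -8.39 against -5.22 and -4.81. SLC7A8, a carrier of neutral amino acids, read -8.60 and -7.86 against -5.19 and -5.14. Both had tight resistant flasks, unlike SLC24A4, a potassium-dependent sodium/calcium exchanger, whose flasks read -5.17 and -3.41 against -6.50 and -7.78 in naive cells. Of 252 other solute carriers tested, 12 were called higher and 12 lower. The largest of the rises was SLC7A7, whose product carries basic amino acids, at 3.85 ± 0.23 (SE, limma adjusted p = 0.00144).

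ATP8A2, a flippase that moves aminophospholipids to the inner membrane leaflet, read -8.62 and -7.74 in naive and -4.64 and -4.13 in resistant cells, at least 3.67-fold higher. Its relative ATP8B2 was called lower, by -4.58 ± 0.26 (SE, limma adjusted p = 0.00141), and the other 11 flippase genes tested were not called. GRID1, a glutamate receptor subunit of the delta type, read -7.79 and -6.97 against -5.07 and -4.72, and another GRID1 probe was below background on all arrays. ATP6V0D2, a proton pump subunit typical of osteoclasts, was read by 2 probes that do not overlap, with differences of 4.10 and 3.96, and log2 bounds of 1.86 and 1.73. Among 72 other sodium, calcium, chloride, TRP and ligand-gated channel genes tested, 1 was called higher and 2 lower.

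Genes placed under signalling through phosphoinositides, kinases and GTPases numbered 21: GDPD2, INPP4B, PPM1H, PIP5K1B, SH2D1A, PLEKHA4, NRBP2, ARHGAP22, STK33, ITSN1, VAV3, PRR5L, REPS2, FAM59A, PIK3IP1, PRKAG2, JAKMIP3, CAMK2B, GNA14, JAK3 and CASKIN2. The share of such genes on the array was not counted. GDPD2, a glycerophosphodiester phosphodiesterase, read -8.52 and -8.30 in naive and -1.62 and -1.54 in resistant flasks, at least 25.6-fold higher. INPP4B, a phosphatase that removes a phosphate from phosphoinositides and restrains PI3K signalling, read -8.59 and -8.40 against -2.09 and -1.66, at least 20.9-fold higher, while another INPP4B probe was below background on all arrays. The naive values of both were surrogates on both arrays. PIP5K1B, a kinase that makes the phosphoinositide used by PI3K, read -7.95 and -6.69 against -2.58 and -2.73. PPM1H, a protein phosphatase, read -7.73 and -6.93 against -2.17 and -2.52.

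The bounds of PPM1H and PIP5K1B were 15.1-fold and 12.2-fold. ARHGAP22, an activator of the GTPase function of Rac, read -6.42 and -6.20 against -2.88 and -2.69, at least 11.1-fold higher. Its naive values lay close to the floors of -6.35 and -6.17, so the bound is near the measured difference of 3.52. SH2D1A, the SAP adaptor of T and NK cells, was at least 4.15-fold higher. JAK3, the kinase of the common gamma chain receptors, had a bound of 1.67-fold, but its 2 other probes, above background on all arrays, differed by -0.20 and 0.03 and were not called.

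PIK3IP1, an inhibitor of PI3K, read -6.94 and -6.91 in naive and -4.60 and -4.40 in resistant cells, at least 3.40-fold higher. It stands on the list of FOXO factors and targets together with C10orf10. C10orf10, now DEPP1, is a known target of FOXO factors, which PI3K signalling keeps out of the nucleus. It read -8.60 and -8.41, both surrogate values, in naive cells and -1.12 and -0.99 in resistant cells, at least 37.0-fold higher. A second C10orf10 probe, at chr10:45472931-45472990 (hg19), read -8.61 and -8.41 against -5.07 and -5.47. Of the 16 other genes of that list tested, FOXO1 itself was called higher by 1.51 ± 0.22 and BCL6, a transcriptional repressor, by 3.27 ± 0.34 (SE, limma adjusted p = 0.0227 and 0.00745). None was called lower, and the median log2 difference of those 16 genes was 0.0053 beside -0.0014 over all named genes outside the set.

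Nuclear and RNA-binding proteins numbered 13: RBM47, MACC1, TFEC, MEF2C, SP5, DNMT3L, PYHIN1, ISX, BRUNOL6, TDRD9, ZFP28, PPARGC1A and HEY1. RBM47, an RNA-binding cofactor of cytidine editing, read -7.99 and -7.67 in naive and -1.32 and -1.44 in resistant cells, at least 29.5-fold higher. MACC1, known as a regulator of the MET receptor gene in colon cancer, read -6.73 and -8.40 against -1.43 and -1.75, at least 25.5-fold higher. Its other probes that do not overlap the first had differences of 5.37, 5.03 and 4.40, and 1 of them was above background on naive array 1. Among transcription factors, MEF2C was at least 8.01-fold higher, TFEC, a macrophage relative of MITF, at least 7.47-fold and SP5, a target of Wnt signalling, at least 6.78-fold.

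DNMT3L, the inactive partner of the de novo DNA methyltransferases in germ cells, was at least 8.46-fold higher. The zinc finger gene ZFP28 read -8.63 and -7.40 against -5.33 and -4.55. PPARGC1A, the coactivator of mitochondrial biogenesis, and HEY1, a target of Notch, had bounds of 1.80-fold and 2.99-fold. Other probes of PPARGC1A and ZFP28 were below background on all arrays. In 491 other zinc finger genes tested 5 were called higher and 10 lower.

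Adhesion, junction and cytoskeleton genes numbered 19: SHROOM2, PCDHB16, ADAM28, PDZD7, PCDHB14, TSPAN12, PPFIA4, NHS, PCDH12, MAL2, PCDHB2, TMOD1, LPP, LRFN3, ACTR3C, PPFIBP1, MYO15A, ANK2 and CGN. SHROOM2, an actin-binding protein, read -8.64 and -8.47, both surrogate values, in naive and -2.19 and -2.29 in resistant cells, at least 16.2-fold higher. ADAM28, a membrane metalloprotease of lymphocytes, read -6.44 and -8.46 against -2.94 and -3.02, at least 9.74-fold higher. LPP, a focal adhesion protein, was at least 5.95-fold higher, and CGN, the tight junction protein cingulin, at least 1.27-fold.

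Enzymes of metabolism and protein folding gave 11 genes: ACP5, HNMT, FAAH2, TDO2, RENBP, AKD1, CYB561, FKBP10, ACSM1, ERO1LB and GFPT2. ACP5, the tartrate-resistant acid phosphatase of osteoclasts and macrophages, read -6.93 and -6.24 in naive and -1.27 and -0.93 in resistant flasks, at least 35.8-fold higher. HNMT, which inactivates histamine, was at least 7.88-fold higher. HDC, which makes histamine and marks mast cells and basophils, was not in the set and went the other way, with levels of 3.87 and 4.24 in naive and 0.53 and 0.83 in resistant cells. FKBP10, a collagen chaperone, read -8.13 and -8.44 against -5.70 and -6.18, a bound of 1.25-fold. Of 17 other collagen folding and crosslinking genes tested none was called higher, and FKBP9 and LOXL1 were called lower by -2.87 ± 0.27 and -3.16 ± 0.22 (SE, limma adjusted p = 0.00519 and 0.00221).

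Cancer-testis and germline genes, normally used in testis and often found in tumors, were PRAME, PRAMEF3, PAGE5 and CCNB3. PRAME read -6.96 and -6.69 in naive and -1.06 and -1.68 in resistant cells, at least 29.7-fold higher, by the probe at chr22:22891002-22891061 (hg19). PRAMEF3 read -8.59 and -8.37 against -5.35 and -5.80 and shares sequence with near-identical copies, so its identity is uncertain. PAGE5, an X-linked cancer-testis gene, read -6.80 and -6.28 against -4.76 and -4.30. Of 22 other genes of these families tested, MAGEB2 was called higher by 3.47 ± 0.30 (SE, limma adjusted p = 0.00415) and none lower. The muscle-associated genes were FBXO32 and TRIM63, ubiquitin ligases of muscle wasting, and MYBPC1 and MYL4 of the sarcomere, and none had a bound of 4-fold.

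The other 33 genes have other or less well known roles. They were C10orf10, TMEM56, KIAA1324L, FAM82B, LRRC43, DNAJC22, C21orf81, C21orf62, ZSWIM5, C6orf105, ANKRD20A2, DLEC1, S100Z, C14orf1, TMEM45A, GRAMD1C, STXBP6, C1orf113, TRANK1, OTUD1, VWA5A, MTMR9L, FAM183B, CCDC116, EXD3, PLK5P, ITPRIPL2, CRYBB1, C13orf18, TMEM92, FLJ13197, RPL10 and SPDYE8P. ZSWIM5, a zinc finger protein, read -7.31 and -6.91 against -2.91 and -2.98, at least 9.97-fold higher. TMEM56, a membrane protein now named TLCD4, read -8.64 and -8.42 against -3.04 and -3.09, and S100Z, of the calcium-binding S100 family, -6.50 and -6.55 against -3.40 and -2.82. Their bounds were 9.19-fold and 8.88-fold.

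**Figure D2:**
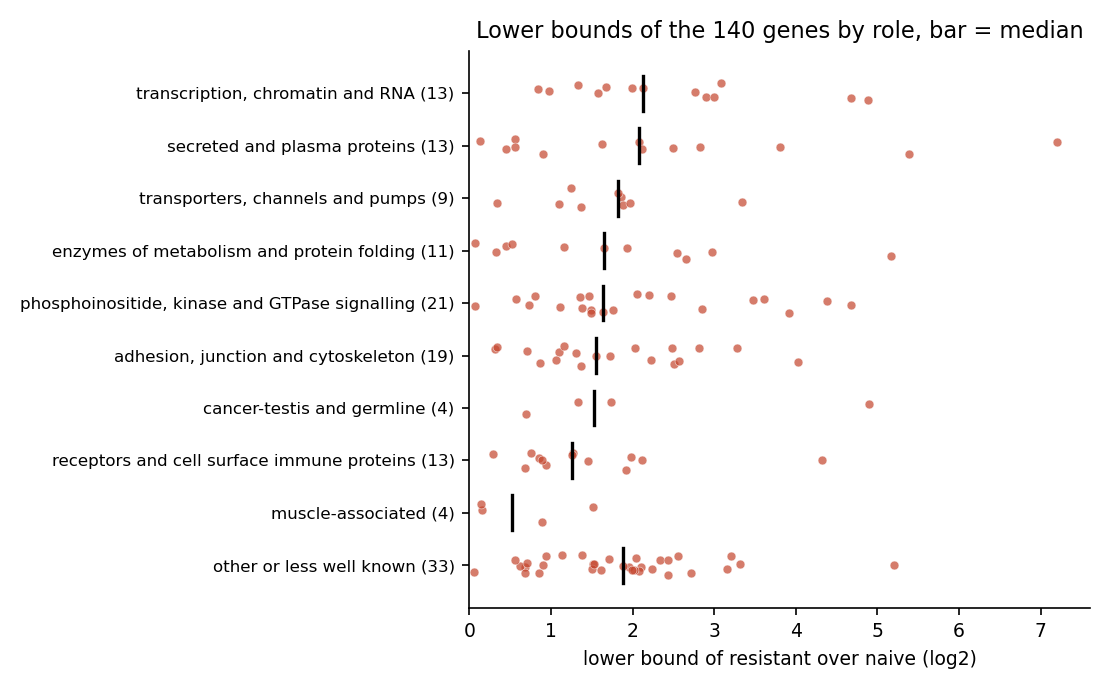
Lower bound of resistant over naive (log2) for each of the 140 genes, 1 point a gene, by role, with the number of genes in brackets and a bar at the group's median. The medians of the named roles ran from 0.52 for the 4 muscle-associated genes to 2.13 for the 13 nuclear and RNA-binding genes, and the point at 7.20 is FSTL5.

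The edge of the set was not sharp. Just inside the required difference of 2 lay MFSD6L at 2.04, SPDYE8P at 2.02 and PAGE5 at 2.01, and just outside lay IL22RA2 at 1.97, GAS2L2 at 1.94 and HLA-DQB1 at 1.92. IL22RA2 read -7.10 and -7.30 in naive and -5.42 and -5.03 in resistant cells. MFSD6L, a membrane transporter of the major facilitator family, read -6.50 and -6.46 against -4.52 and -4.35, so the values on either side of the threshold were alike. In all, 249 named genes had the on and off flags at any size of difference.

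Other probes of the same genes bear on whether a transcript was absent from naive cells. For 68 genes the array held no other probe at a separate place, and for 72 it did. In 30 of these 72 no other probe was above background in naive cells. Among the 30, other probes that did not meet the rule were found in 23 genes, and in 19 of these they were below background in resistant cells too, as for INPP4B, F2 and ERBB4, so they did not show the rise. In the other 42 at least 1 was, and for 37 genes it was above background on both naive arrays, so by those probes the gene was already expressed before resistance. RPL10, a ribosomal protein, is the plainest case, since 4 of its other probes read between 5.71 and 6.64 on all 4 arrays, and its switched-on probe, at -6.91 and -8.44 against -5.52 and -5.64, does not stand for the ribosomal transcript. DNAJC22 and SP5 likewise had another probe above background on every array that differed by -0.18 and -0.08.

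Of these other probes, 53 from 37 genes were above background on both naive arrays. They had not been used by the rule, although they read the same 4 RNA samples. In the limma fit 18 of them (34.0%) were called higher, in 14 genes, and none lower, beside 1.48% of all probes above background on both naive arrays. Their median log2 difference was 0.81. For the 14 genes these probes show a rise from a level already measurable in naive cells. PRAME's other probe rose by 6.11 ± 0.31 (SE, limma adjusted p = 0.0011), from -5.18 and -4.47 to 1.28 and 1.30. VAV3 rose by 2.68 ± 0.22 (limma adjusted p = 0.0039). One other probe of the complement gene C2 rose by 4.04 ± 0.36 (limma adjusted p = 0.0044), and a second, at -3.03 and -2.48 against -2.03 and -2.09, was not called. LPP had 4 other probes called higher, by 2.45 to 3.18, and another, near the floor, that was not called. PIK3IP1 and PPM1H had another probe called higher, by 1.99 and 2.66.

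The other 23 of the 37 genes had no such probe called. They were AKD1, ANKRD20A2, C13orf18, C14orf1, C1orf113, CASKIN2, CD86, CECR1, DNAJC22, EXD3, ITPRIPL2, ITSN1, JAK3, MTMR9L, MYL4, PDZD7, PPFIBP1, PRKAG2, RPL10, SP5, SPDYE8P, THPO and TMEM92. A missed call is not a lack of difference. The other C13orf18 probe differed by 2.93 ± 0.71 (SE, limma adjusted p = 0.101), the other probes of ITPRIPL2 by 1.69 and 0.99 and those of PPFIBP1 by 1.099 to 1.45. A further ANKRD20A2 probe, above background on 1 naive array, was called higher by 2.82.

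**Figure D3:**
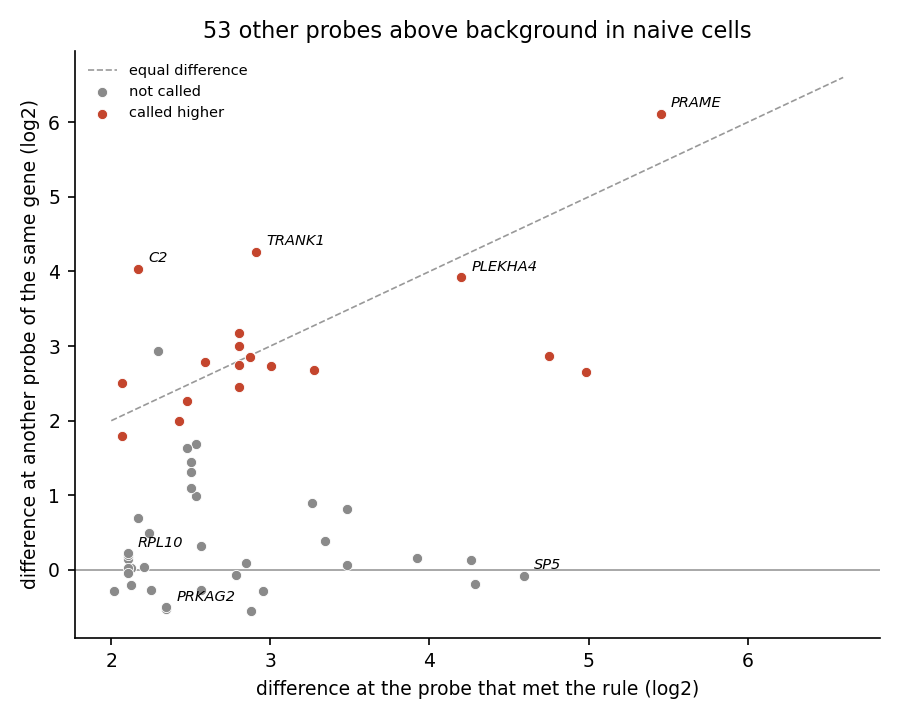
Log2 difference at the probe that met the rule (x axis) against that at another probe of the same gene (y axis) for the 53 other probes above background on both naive arrays, in red where limma called them higher and in grey where not. The dashed line marks equal differences; PRAME lies above it at 6.11, while SP5, RPL10 and PRKAG2 lie near or below 0 on the y axis.

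In all, 12 genes met the rule by more than 1 probe. These were MACC1 by 3 probes and ADAM28, SP5, FAM82B, ATP6V0D2, TFEC, ANKRD20A2, C10orf10, PCDHB2, C21orf62, HNMT and PROS1 by 2. The probes of TFEC differed by 5.14 and 3.84, those of ADAM28 by 4.47 and 4.39, those of HNMT by 4.29 and 2.67 and those of C21orf62 by 4.22 and 2.80. One of the PROS1 probes lies elsewhere on chromosome 3 than the others and another read background on all arrays. ANKRD20A2 belongs to a family of near-identical copies, and its 6 probes ran from -0.77 to 3.92, so the copy that changed is uncertain.

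The 126 genes with a probe placed on hg19 lay on 22 of 23 chromosomes, and the 14 without a position, such as C21orf81 and CRYBB1, are not in these counts. Chromosome 7 held 12 of 791 named genes (1.52%), chromosome 21 3 of 210 (1.43%) and chromosome 22 5 of 398 (1.26%), and chromosome 20 held none of 474. Chromosomes X (1.21%), 5 and 8 (1.18% each) and 3 (1.16%) were close behind. The whole set, with the genes that have no position, was 0.762% of named genes. The counts per chromosome are small, and a concentration on any of them was not tested. Of these 126 genes, 10 pairs of neighbours lay within 1 Mb of each other. Outside the set, 49 of 1887 named genes within 1 Mb of these genes (2.6%) were called higher and 46 (2.44%) lower, beside 2.22% and 3.37% of all 13788 named genes outside the set. Within 100 kb the counts were 6 of 242 (2.48%) higher and 5 (2.07%) lower. The shares of higher calls near the switched-on genes were thus close to the background.

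The 6 neighbours within 100 kb called higher were PCDHB8, PCDHB9, PCDHB11, C7orf29, CHRD and IL8RBP, and the 5 called lower were GPR137B, CCDC28B, TUFT1, MICAL1 and OSCP1. CHRD lay 17.5 kb from THPO and C7orf29 lay 7.5 kb from RARRES2, which itself was 92.8 kb from ACTR3C on chromosome 7. C7orf29 was called higher by 3.05 ± 0.37 (SE, limma adjusted p = 0.0127). The other pairs of switched-on genes were RARRES2 and ACCN3, ACCN3 and PRKAG2 farther along that chromosome, ATP6V0D2 and FAM82B on chromosome 8, REPS2 and NHS and also RENBP and RPL10 on X, and CCDC116 and PRAME on chromosome 22, with gaps of 320.1 to 899.4 kb. ACTR3C, an actin-related protein, read -8.63 and -8.33 against -5.92 and -5.97, and RARRES2 -8.43 and -8.41 against -3.96 and -3.58. ACCN3, an acid-sensing ion channel, read -8.62 and -7.43 against -5.80 and -6.05, and PRKAG2, a subunit of the energy sensor AMPK, -8.63 and -8.44 against -6.13 and -6.25. These neighbours thus differed in the size of their change, RARRES2 by 4.65 and PRKAG2, just above the floor, by 2.34. The 2 other PRKAG2 probes, above background on all arrays, differed by -0.52 and -0.50 and were not called. FAM82B, now RMDN1, read -8.50 and -8.42 against -2.88 and -4.54 at 1 probe and -6.50 and -6.41 against -2.45 and -2.41 at another, so its resistant flasks were far apart at only 1 of them. REPS2, an endocytosis adaptor, read -7.08 and -7.46 against -4.26 and -4.99, NHS -7.80 and -8.41 against -5.05 and -4.74, and RENBP, which binds renin, -6.92 and -6.73 against -3.67 and -3.77. CCDC116 read -7.47 and -8.39 against -5.40 and -4.87.

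The closest group lay in the protocadherin beta cluster on chromosome 5. Clustered protocadherins are adhesion proteins of neurons, each gene has its own promoter, and a cell usually uses only some of them. PCDHB2 was read at chr5:140476664-140476723 (hg19), PCDHB16 88.6 kb farther and PCDHB14 40.1 kb beyond that, with PCDH12, a protocadherin of endothelium outside the cluster, another 723.4 kb on. PCDHB16 read -8.58 and -8.41, both surrogates, in naive and -3.84 and -3.68 in resistant cells. PCDHB14 read -7.14 and -7.85 against -3.07 and -3.83, and PCDHB2 -6.78 and -6.58 against -4.004 and -3.55. PCDH12 read -8.60 and -7.94 against -4.98 and -5.35. The rule chose these genes by the gap between the lines, so that gap is no separate support. Of 14 other cadherins and unclustered protocadherins tested, PCDH21 was called lower and none higher.

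Of 18 protocadherin beta genes on the array 10 could be tested, and besides these 3 another 3 were called higher. PCDHB8 rose by 2.03 ± 0.25, PCDHB9 by 2.65 ± 0.39 and PCDHB11 by 2.28 ± 0.33 (SE, limma adjusted p = 0.013, 0.023 and 0.0229), from levels above background in naive cells. Another PCDHB9 probe, above background on 1 naive array, differed by 1.70 ± 0.52 (limma adjusted p = 0.168) and was not called. The calls of PCDHB8, PCDHB9 and PCDHB11 rest on both resistant flasks. They were lost without flask 1, and fewer were made without flask 2. At the called probes each resistant flask lay above both naive flasks, but the probes were picked by calls on these same values. PCDHB8 read -5.80 and -5.49 in naive and -3.75 and -3.48 in resistant flasks. PCDHB9 read -5.28 and -4.24 against -2.11 and -2.11, and PCDHB11 -4.12 and -3.58 against -1.27 and -1.87. PCDHB7, at its only probe, and PCDHB13, at its brighter probe, were above background in every flask and differed by -0.01 and -0.16. The other PCDHB13 probe and those of PCDHB5, PCDHB6 and PCDHB17 read background throughout. None of 3 protocadherin alpha genes tested was called higher, and of 9 gamma genes 1 was, PCDHGB3 by 1.36 ± 0.22 (limma adjusted p = 0.0343), which was not above background on the naive arrays. PCDHB10 differed by 2.75 ± 0.63 (limma adjusted p = 0.0849). Beta genes resemble each other in sequence, so probes may share signal between copies.

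**Figure D4:**
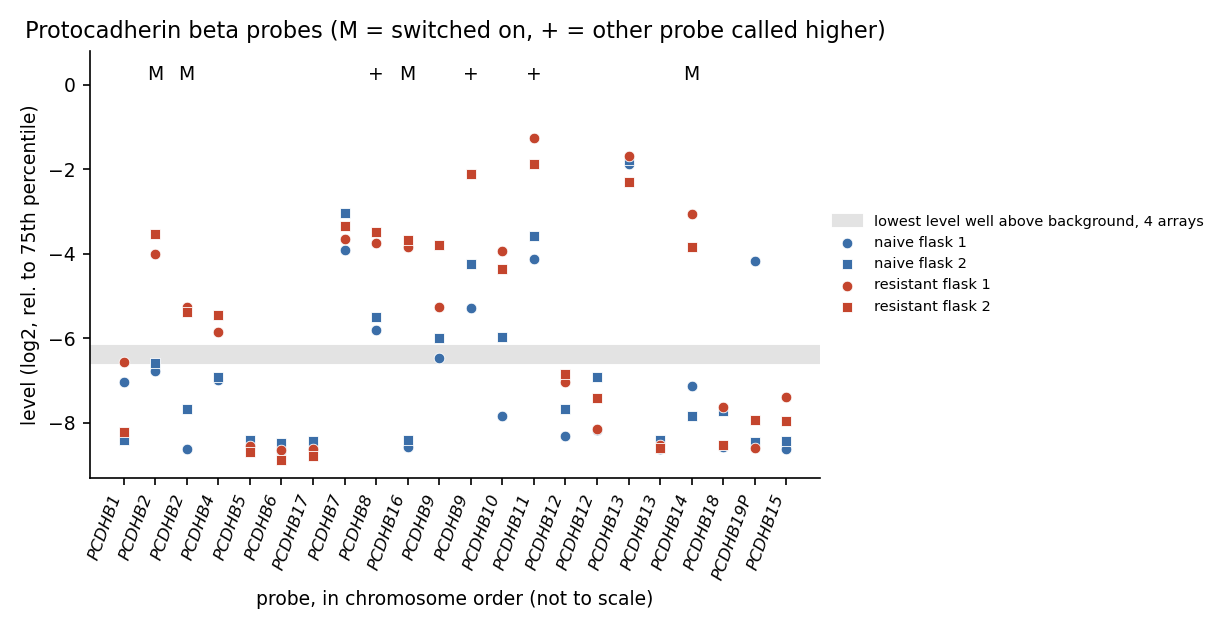
Log2 levels (75th percentile of the array = 0) of the protocadherin beta probes in chromosome order, naive flasks in blue and resistant flasks in red, with the lowest levels well above background shaded. M marks probes of switched-on genes and + other probes called higher; PCDHB16 and PCDHB14 pass from below the band to above it, while PCDHB7 and PCDHB13 overlap between lines.

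The 250 bases before the transcription start were taken for 102 of the 140 genes from RefSeq promoters (GRCh38.p14). Promoters of the set were poorer in CpG than those of all 14098 genes of the array matched in that table. CpG-rich ones, with at least 50% G and C and an observed over expected CpG ratio of at least 0.6, were 41 of 102 (40.2%) beside 64.1% of all, and the median number of CpG was 9.5 beside 18. The TATA box TATAAA was found in 13.7% beside 8.24%, and the GC box GGGCGG in 43.1% beside 58.8%. Most other motifs searched on both strands were at shares like those of all promoters, among them CCAAT (32.4% beside 34.7%), the E-box CACGTG (7.84% beside 8.06%), the AP-1 letters TGANTCA (5.88% beside 4.75%) and AGGTCA of nuclear receptors (8.82% beside 9.7%). For PU.1, GAGGAAGT was in 2.94% beside 2.16%. The antioxidant response core TGACNNNGC was in 14.7% beside 11.7% and the metal response core TGCGCNC in 15.7% beside 23.2%. These are descriptions with no test. All promoters included those of genes expressed in naive cells, while the set was chosen by probes at background there. Whether the lower CpG content is particular to genes that rose was not tested.

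The forkhead letters TGTTTAC, which FOXO factors bind, were in 7 promoters (6.86%) beside 295 of all (2.09%). The genes were SEPP1, C10orf10, SLC4A3, OTUD1, GRAMD1C, PROS1 and DLEC1. The first 3 of these have the largest bounds and are shown 5′ to 3′ in the direction of the gene, with those letters or their reverse complement in capitals. They begin 45, 180 and 7 bases before the start. SEPP1 is chr5:42811893-42812142 (minus strand), C10orf10 is chr10:44978810-44979059 (minus strand) and SLC4A3 is chr2:219630807-219631056 (plus strand). A match is no evidence of binding. The shares were not matched for base composition, and promoters of the set had a median of 57.8% G and C beside 63.2%.
SEPP1: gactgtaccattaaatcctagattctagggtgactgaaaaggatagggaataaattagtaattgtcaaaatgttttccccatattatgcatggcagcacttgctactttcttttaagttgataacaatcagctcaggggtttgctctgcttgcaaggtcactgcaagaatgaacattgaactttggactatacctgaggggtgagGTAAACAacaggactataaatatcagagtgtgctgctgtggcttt
C10orf10: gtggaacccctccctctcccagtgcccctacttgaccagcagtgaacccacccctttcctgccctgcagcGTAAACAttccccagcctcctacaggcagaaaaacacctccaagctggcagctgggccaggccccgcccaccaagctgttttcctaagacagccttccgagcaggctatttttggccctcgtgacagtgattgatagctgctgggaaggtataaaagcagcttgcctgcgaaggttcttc
SLC4A3: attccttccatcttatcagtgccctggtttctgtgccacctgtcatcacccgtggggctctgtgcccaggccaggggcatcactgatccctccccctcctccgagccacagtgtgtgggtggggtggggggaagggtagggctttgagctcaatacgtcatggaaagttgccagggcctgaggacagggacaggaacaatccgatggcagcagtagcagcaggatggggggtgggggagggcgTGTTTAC

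The promoters of the 3 protocadherin beta genes, chosen after their values were seen, shared the 9 letters GGTGGCGCT, part of the conserved element that precedes most clustered protocadherin exons. The letters began 60 to 69 bases before the start, were found in 76 of all promoters (0.539%) and stood in 11 of 13 protocadherin beta promoters in the table, so they do not separate the switched-on genes from the silent ones. PCDHB2 is chr5:141094365-141094614, PCDHB16 is chr5:141182137-141182386 and PCDHB14 is chr5:141223093-141223342, all on the plus strand of GRCh38.p14, with the shared letters in capitals.
PCDHB2: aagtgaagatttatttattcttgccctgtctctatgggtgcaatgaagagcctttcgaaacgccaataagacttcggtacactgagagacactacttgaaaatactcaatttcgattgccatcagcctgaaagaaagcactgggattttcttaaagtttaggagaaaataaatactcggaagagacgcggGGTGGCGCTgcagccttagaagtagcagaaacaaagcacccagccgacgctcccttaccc
PCDHB16: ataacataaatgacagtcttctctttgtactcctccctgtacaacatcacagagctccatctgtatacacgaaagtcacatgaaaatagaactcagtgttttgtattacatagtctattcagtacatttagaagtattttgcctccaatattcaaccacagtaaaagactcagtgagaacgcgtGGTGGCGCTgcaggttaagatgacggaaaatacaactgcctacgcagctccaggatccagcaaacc
PCDHB14: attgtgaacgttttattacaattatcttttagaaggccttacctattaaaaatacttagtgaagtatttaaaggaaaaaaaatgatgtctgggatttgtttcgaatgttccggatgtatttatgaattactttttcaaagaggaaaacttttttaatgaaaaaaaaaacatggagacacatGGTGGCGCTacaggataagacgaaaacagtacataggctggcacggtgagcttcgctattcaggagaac

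Of the 22 gene lists examined, 13 held at least 1 switched-on gene and 9 held none. Those without were collagens, potassium channels, developmental transcription factors, synaptic genes, guidance genes, Wnt genes, fibroblast growth factors, drug and aldehyde metabolizing enzymes, and keratins with intermediate filaments. Some genes of these lists were called. SV2B, a synaptic vesicle protein, was called higher by 5.52 ± 0.23, FGF9, a growth factor, by 4.37 ± 0.32 and HOXA5, a homeobox factor, by 3.52 ± 0.45 (SE, limma adjusted p = 0.000831, 0.00271 and 0.015), FGF9 from background on 1 naive array. CYP2W1, a cytochrome P450 of tumors, rose by 4.07 ± 0.26 (limma adjusted p = 0.00174) and lay 104.2 kb from GPER. In the guidance list 6 of 44 genes tested were called lower, NRP1 among them by -3.37 ± 0.23, and 1 was called higher, EFNB1 by 2.37 ± 0.32 (limma adjusted p = 0.00221 and 0.0175). Collagens gave 1 call higher and 2 lower of 21 tested, potassium channels 1 and 3 of 43, developmental transcription factors 6 and 5, and Wnt genes 2 and 2 of 25. The synaptic and fibroblast growth factor lists gave 1 and 0 of 19 and of 13, the metabolizing enzymes 4 and 2 of 67, and the keratins 0 and 2 of 27, with KRT18 called lower by -4.16.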

How the data were processed

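RNA from 2 flasks of each line was hybridised to 4 one-colour arrays. Per the file headers, the scanner software (Feature Extraction 10.5.1.1) subtracted a fitted background to give the processed intensities, with flags for signal well above background. The authors normalized them in GeneSpring GX 11 and deposited them as log2 values with the array's 75th percentile set to 0, the levels printed here. From the intensities, log2 values minus the 75th percentile were computed anew (r of at least 0.9998 with the deposited values) and tested with limma 3.58.1 in R 4.3.3 on the 28228 probes well above background on both arrays of a line. A call needed a Benjamini-Hochberg adjusted p under 0.05 and a log2 difference of at least 1. The brightest tested probe stood for a gene, except that calls of the switched-on genes were counted at the probe that met the rule. The number of arrays limits the precision, and p-values measure only the spread between flasks.

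Well above background were 28127 and 28249 probes on the naive and 28002 and 28272 on the resistant arrays. The genes and the 22 lists were chosen with earlier results of these data known, and roles were grouped by hand after the values were seen. The rule for values per array took the 20 genes with the largest bound, genes on the lists, neighbours within 1 Mb, the 3 genes on either side of the threshold and genes with several probes. Of the 72 genes with several probes, only some are given by value and the rest by counts. Of the 140 names, 126 matched a RefSeq symbol, and 18 of these differ today. Probe positions are those of the deposited files (hg19), and the place of a probe within its transcript was not used here. Promoters came from RefSeq tables. The result of 1 of the lists is not reported here. Alternatives covered background correction, scaling, probe filter, test and each array left out.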

Additional observations from a re-analysis of the deposited data

How the results depend on the processing

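Against 140 switched-on genes, the rule gave 63 with the looser positive-and-significant flag in place of the well-above-background flag (only 38 of these 63 among the 140), 77 with a log2 difference of at least 3, 54 with a log2 bound of at least 2, 5 after normexp background correction and 11 after normexp with bright local backgrounds reset. Leaving out 1 array gave 170 to 268 genes. In separate fits beside the 1487 probes called, limma called 0 after normexp (929 at an unadjusted p under 0.05), 763 when a probe had to be above background on all arrays and 878 to 4768 with 1 array left out, and the methods' t-test called 0 after adjustment (4138 unadjusted). The count of switched-on genes called higher at the probe that met the rule, 118 of 140, became 0 after normexp, 32 with backgrounds reset and 0 by the methods' t-test. The median log2 difference of 3.09 became 0.66 under both normexp settings and 2.77 when each gene's probes were averaged. The 18 other probes above background in naive cells and called higher became 0 under normexp and 0 by the methods' t-test, and 13 to 23 with 1 array left out. The 3 protocadherin beta genes called higher outside the set became 5 under scale normalization, 0 under normexp, 1 without the filter on dim probes, 0 by the methods' t-test, and 0 to 5 with 1 array left out. With 1 array left out a line had 1 flask, assumed to vary like the others. The cause of these changes was not tested. Across 102 named genes and 1122 alternative values, 853 moved by less than the spread, 269 by more, and 0 reversed. Genes chosen by the rule or by a call on these same arrays had little room to reverse.

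The flasks share only a number. With the replicate block, 1375 probes were called, 128 of the switched-on genes, 18 of the other probes and 3 protocadherin beta genes, and same-numbered deviations correlated at 0.119 over 2 pairs. A slide block could not be fitted because all arrays lay on 1 slide.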
